A study of Mus musculus with 42 samples.

Results

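The data described here are the chemokines and chemokine receptors of mouse liver, 60 of the 47729 genes in the files. Members were all protein-coding genes with a Ccl, Cxcl, Xcl, Cx3cl, Ccr, Cxcr, Xcr, Cx3cr or Ackr symbol followed by a number, and the rule used no measured value. They comprised 37 ligands and 23 receptors, and 21620 genes of the files were annotated as protein-coding. Livers came from Gfi1Cre/+;Rpl22HA/HA mice, in which Cre under control of Gfi1 switches on an HA-tagged form of the ribosomal protein Rpl22, and the same allele pair was carried by every animal. Each of 7 protocols gave 3 libraries of total liver RNA (input) and 3 of the RNA bound to ribosomes that an HA antibody pulled out (IP), 42 in all. The kits were NEBNext Ultra Directional (NEB), NuGEN Ovation V2 (NuG) and SMARTer Stranded (SMTer) with 4 ng of RNA, SMART-Seq v4 with 4 ng (SMTseq4) or 0.25 ng (SMTseq0.25), and TruSeq with 4 ng (Tru4) or 70 ng (Tru70). Mice were 30 days old by the methods, while a label of the libraries names day 1. The Cre marks cells by past or present Gfi1 expression, and an IP also carries RNA from cells without the tag.

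Chemokines are small secreted proteins that guide leukocytes, and they act through receptors that couple to G proteins. Their names follow the spacing of conserved cysteines, as CC, CXC, XC and CX3C. Atypical receptors (Ackr) bind chemokines without G-protein signalling and mostly remove or transport them. In the liver, resident macrophages (Kupffer cells), lymphocytes, endothelium and stromal cells are known sources or targets of these signals.

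Libraries stand by their replicate number, which is taken as the mouse. In replicate 3 of NEB, NuG, SMTer and Tru4, the libraries labelled input and IP had the gene numbers listed for the opposite fraction, so these 8 libraries were exchanged. After the exchange all 42 libraries had the gene number listed for their fraction, against 34 as labelled. The exon counts summed to between 464199 and 45466334 per library. Levels are CPM (reads of a gene relative to the library's total) with a scaling factor for composition (TMM). For SMTer the deposited RPKM were used. Gfi1 itself was at 0 in all 3 Tru70 input libraries and at 0 to 0.943 CPM in the IP libraries, and was at 0 in every NEB library. It could be tested only with SMTseq4 and Tru4. It was called higher in IP with SMTseq4 (log2 fold change 3.38, edgeR adjusted p = 0.00345) and not with Tru4 (2.88, edgeR adjusted p = 0.0891). With NuG and SMTer all 3 IP libraries lay above all 3 input libraries. The paper checked the pull-down by real-time PCR of Gfi1 in input and IP. The 8 hepatocyte markers, Alb among them, summed to 165596 to 185115 CPM in Tru70 input and 24026 to 25762 CPM in Tru70 IP, so the tissue label held in both fractions.

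Among the 60 genes, Ccl6 and Ccl9 stand next to each other on the minus strand of chromosome 11 (GRCm38) and moved in opposite directions between input and IP. Ccl6 (ENSMUSG00000018927) lies at chr11:83587882-83593087 and Ccl9 (ENSMUSG00000019122) at chr11:83572919-83578636. Both encode CC chemokines that bind Ccr1. Because the results turn on this pair, the 250 bases before each start site are shown as RefSeq gives them for GRCm38.p6, at chr11:83593088-83593337 for Ccl6 and chr11:83578637-83578886 for Ccl9, both on the minus strand and written 5′ to 3′. Capitals mark the longest repeated run in the Ccl6 window and the motif TATAAA, on either strand, in the Ccl9 window.
Ccl6: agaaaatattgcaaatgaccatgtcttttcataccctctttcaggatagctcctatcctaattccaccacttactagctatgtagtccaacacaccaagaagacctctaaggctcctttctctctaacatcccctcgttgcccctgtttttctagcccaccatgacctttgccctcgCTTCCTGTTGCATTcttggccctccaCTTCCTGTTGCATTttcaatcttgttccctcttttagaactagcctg
Ccl9: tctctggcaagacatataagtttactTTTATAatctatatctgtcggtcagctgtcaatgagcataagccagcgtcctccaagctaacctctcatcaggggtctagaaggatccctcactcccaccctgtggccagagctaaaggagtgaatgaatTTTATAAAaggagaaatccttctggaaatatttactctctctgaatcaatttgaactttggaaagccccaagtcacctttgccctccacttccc
The Ccl6 window held the 14-base run CTTCCTGTTGCATT in 2 copies, which began 73 and 47 bases before the start. TATAAA occurred 3 times in the Ccl9 window, on the plus strand 92 bases before the start and on the minus strand at 94 and 224 bases, and the first of these overlaps the second. Of 32851 windows of this length, 12.4% held TATAAA on either strand, and so did 15 of the 53 windows of chemokine and receptor genes (28.3%). The Ccl6 window did not hold it. GAGGAA, searched on both strands, was in neither window and in 23.3% of all windows. These matches describe the letters only.

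Most chemokine and receptor genes that could be tested were called higher in IP than in input in 6 of the 7 protocols, and 9 of 21 were with NEB. A gene was called when its adjusted p was under 0.05. With Tru70, 20 of 35 tested members were called higher and 2 lower, against 18.1% higher and 16.7% lower of all genes tested. With Tru4, 32 of 42 were higher and 2 lower, and the background was 25.9% higher and 24.2% lower (50.1% in either direction). SMTseq4 gave 33 of 41 higher and 4 lower (background 30.4% and 28.7%, 59.2% in either direction). SMTseq0.25 gave 23 of 38 higher and 1 lower (background 19.8% and 17.1%). NuG gave 23 of 29 higher and 0 lower, where the background was 24% and 20.9% (44.9% in either direction). At an unadjusted p under 0.05, 1 member was lower with NuG by edgeR, and DESeq2 also called 0. NEB gave 9 of 21 higher and 1 lower (background 5.82% and 5.34%), and SMTer gave 8 of 11 higher and 0 lower with limma on RPKM (background 12.9% and 5.57%). At an unadjusted p under 0.05, 2 members were lower with SMTer by limma. The edgeR test on exon counts of SMTer called 3 higher and 1 lower. Many members passed the filter on low counts only through IP libraries, so the tested members are not a sample of all 60.

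**Figure D1:**
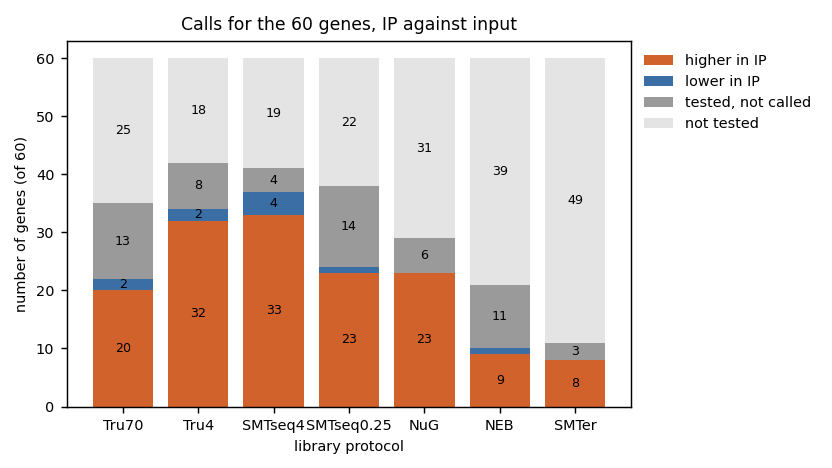
Number of the 60 chemokine and receptor genes (y axis) in each call class for each of the 7 library protocols (x axis). Higher calls outnumber lower calls in each protocol, from 33 with SMTseq4 to 8 with SMTer, and between 18 and 49 genes were not tested.

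Over the members tested, the median log2 fold change of IP against input was 4.16 with Tru70, 4.36 with Tru4, 3.98 with SMTseq4, 3.66 with SMTseq0.25, 3.09 with NuG, 3.67 with NEB and 2.93 with SMTer. Over all genes tested it lay between -0.05 and 0.06. Members that passed the filter only through IP libraries could enter these medians, and the counts of separate groups below, only as increases. Part of the height of both thus follows from the filter. Where a fraction held 0 reads, taking the gene at its lowest possible change gave 4.20 with Tru4, 3.59 with SMTseq0.25 and 2.87 with NuG. All 3 IP libraries lay above all 3 input libraries for 25 of 35 members with Tru70 (25.3% of all genes), 34 of 42 with Tru4 (30.4%), 34 of 41 with SMTseq4 (33.9%), 28 of 38 with SMTseq0.25 (28.2%), 22 of 29 with NuG (29%), 11 of 21 with NEB (18.4%) and 9 of 11 with SMTer (21.7%). The scaling sets the zero of these changes. With library totals alone, the median over all genes rose to 0.41 with Tru70, 0.47 with Tru4, 0.56 with SMTseq4, 0.54 with SMTseq0.25, 0.49 with NEB and 1.60 with NuG. The share of higher genes among all calls then went from 52.0% to 72.3% with Tru70, from 51.6% to 75.4% with Tru4, from 51.5% to 73.1% with SMTseq4, from 53.6% to 73.0% with SMTseq0.25, from 52.1% to 73.6% with NEB and from 53.5% to 96.5% with NuG.

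Of the 60 genes, 35 were called higher in at least 1 protocol, 5 were called lower in at least 1, and no gene was called in both directions. Another 4 were tested without a call (Ackr1, Ackr3, Cx3cl1 and Ccr10), and 16 never passed the filter. Exon counts were at 0 in all 42 libraries for 7 genes (Cxcr1, Ccl20, Ccl21a, Ccl21b, Ccl27b, Ccl19 and Cxcl15). Of all genes tested in at least 1 protocol, 32% were called higher in at least 1 and 30.1% lower in at least 1, and 44 members were tested. Called higher in all 7 protocols were 6 of the 10 members tested in all 7 (7.04% of all genes tested in all 7), among them the ligands Ccl24, Ccl6 and Cxcl1 and the receptors Ccr2 and Cxcr3. A further 5 were called higher in 6 protocols, Cxcl16 among the ligands and Cxcr4, Cxcr6, Ccr7 and Cx3cr1 among the receptors. Of 144 calls for the genes named by rule, 104 remained without each replicate in turn, but 2 of 10 with NEB and 12 of 22 with Tru70. The NEB calls of Ccl24 (edgeR adjusted p = 0.0744 without replicate 3) and Ccr2 (0.229 without replicate 2, 0.155 without replicate 3) were among those lost. In bulk IP samples, more tagged cells of a type, more ribosome-bound RNA per cell and RNA from untagged cells cannot be told apart.

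**Figure D2:**
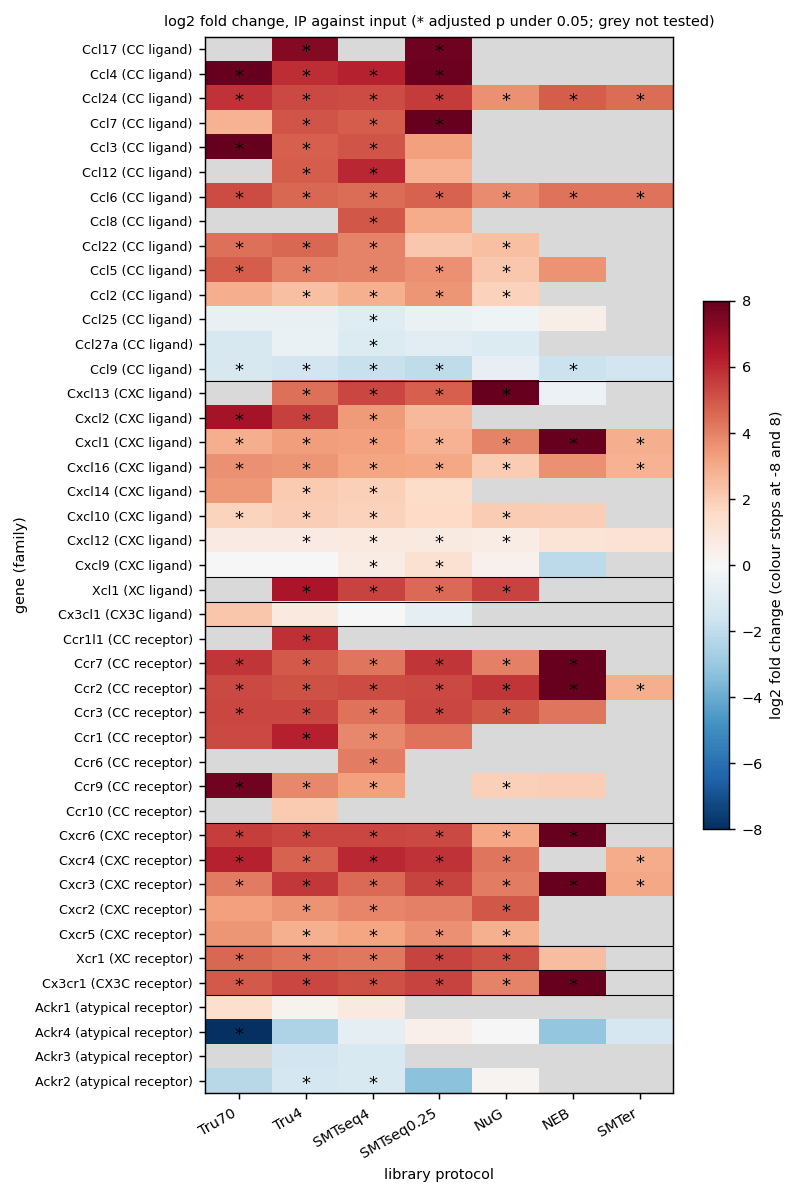
log2 fold change of IP against input for 43 of the 44 chemokine and receptor genes tested in at least 1 protocol (y axis, grouped by family) in each library protocol (x axis), with red for higher and blue for lower in IP, an asterisk for an adjusted p under 0.05 and grey for not tested. Receptors of the CC, CXC, XC and CX3C families are red throughout, and Ccl9, Ccl25 and Ccl27a are the ligands that are blue in most protocols.

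Among the CC ligands, Ccl24 (eotaxin-2, a ligand of Ccr3) had the highest level per length in IP. With Tru70 its level was 5.17, 4.46 and 3.71 in the input libraries and 332, 218 and 189.9 in the IP libraries (CPM). The groups lay far apart, and the log2 fold change was 5.79 ± 0.31 (SE), adjusted p = 4.97e-06 by edgeR's quasi-likelihood test. SMTseq4 gave 10.2, 10.5 and 9.10 in the input libraries and 358, 379 and 371 in the IP libraries, with almost no spread between mice. Its log2 fold change was 5.22 ± 0.18 (SE), adjusted p = 1.73e-07 by edgeR. With NuG the IP libraries were much lower than with the other kits, at 48.8, 51.2 and 51.7 CPM, against 4.92, 4.07 and 2.95 CPM in input. The change with NuG differed from that with Tru70 by -2.23 ± 0.36 (SE) on the log2 scale (edgeR interaction test, adjusted p = 0.00961). Ccl24 was the only member past this test in any of 5 protocols with TMM scaling, the filter on low counts and no replicate block. In tests added after seeing the data, the difference was -0.98 with library totals alone (adjusted p = 0.0419, edgeR), where 5 members passed with NuG, and -1.20 on log2(RPKM + 0.1) (adjusted p = 0.0474, limma), where 4 passed. The background was 0.279% of genes with NuG, 0.37% with SMTseq4, 0.167% with SMTseq0.25, 0.00652% with NEB and 0% with Tru4. Ccl24 did not pass when replicate 1, 2 or 3 was left out of both protocols (edgeR adjusted p = 0.124, 0.239 and 0.0957). SMART-Seq v4 libraries were sequenced at another centre than the rest, so kit and centre cannot be told apart there.

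Ccl6 rose and its neighbour Ccl9 fell. With Tru70 the Ccl6 level was 6.01, 3.30 and 3.08 in the input libraries and 147, 175 and 138 in the IP libraries (CPM), with a log2 fold change of 5.22 ± 0.32 (SE), adjusted p = 8.63e-06 by edgeR. Ccl9 stood at 98.6, 80.4 and 73.2 in the input libraries and 44.7, 39.6 and 18.9 in the IP libraries (CPM), and the lowest input library was above the highest IP library. Its log2 fold change was -1.29 ± 0.32 (SE), adjusted p = 0.0118 by edgeR. SMTseq4 gave the larger Ccl9 levels of 214, 246 and 184 in the input libraries and 57.0, 75.6 and 51.0 in the IP libraries (CPM), and a log2 fold change of -1.81 ± 0.20 (SE), adjusted p = 3.94e-05 by edgeR. Ccl9 was called lower in 5 protocols. It was not called with NuG (log2 fold change -0.63 ± 0.29 (SE), adjusted p = 0.0873 by edgeR), where the groups overlapped, nor with SMTer (limma, -1.55 ± 0.65 (SE), adjusted p = 0.0779). Refits lost these calls (adjusted p, edgeR): Ccl9 with Tru70 (0.0737 without replicate 2) and NEB (0.106 without replicate 1, 0.187 without replicate 2, 0.0687 without replicate 3).

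Dividing Ccl6 by Ccl9 within a library removes depth and scaling. The mean log2 ratio was -4.40 ± 0.32 (SD, n = 3) in Tru70 input and 2.24 ± 0.58 in Tru70 IP. It went from -3.89 ± 0.08 to 2.25 ± 0.34 with Tru4, from -3.60 ± 0.31 to 2.66 ± 0.38 with SMTseq4, from -3.94 ± 0.40 to 2.75 ± 0.41 with SMTseq0.25 and from -3.55 ± 0.76 to 2.55 ± 0.61 with NEB. NuG had the smallest shift, from -4.24 ± 0.97 to 0.29 ± 0.94, and on RPKM SMTer went from -3.48 ± 0.43 to 2.96 ± 0.48. Every input library lay below every IP library in each of the 7 protocols. The exact permutation test, which did not use the pairing of input and IP by mouse, gave p = 0.1 each time. This is the smallest that 3 against 3 allows without pairing. This ratio was chosen after the levels had been seen.

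**Figure D3:**
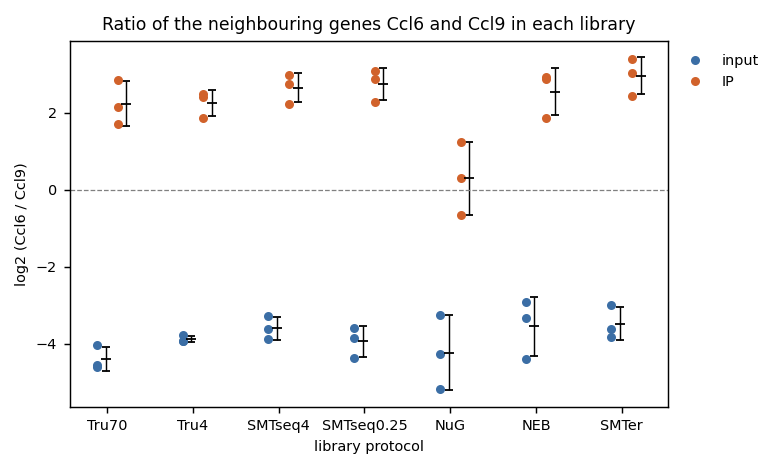
log2 ratio of Ccl6 to Ccl9 (y axis; counts, and RPKM for SMTer) in each input (blue) and IP (orange) library of the 7 protocols (x axis), with the mean and SD of 3 libraries beside the points. Input libraries sit below 0 in each protocol, and IP libraries sit above them, with mean ratios from 0.29 with NuG to 2.96 with SMTer.

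In the same cluster of 5 CC ligand genes on chromosome 11 (chr11:83525778-83664683), Ccl5, Ccl3 and Ccl4 were also called higher. Ccl5 attracts T cells and was at 1.68, 1.36 and 0.446 in the input libraries and 19.1, 31.0 and 48.4 in the IP libraries with Tru70 (CPM), a log2 fold change of 4.82 ± 0.57 (SE), adjusted p = 2.32e-04 by edgeR. The Tru70 input libraries of Ccl3 held 0 reads and the IP libraries 4.36, 0.531 and 2.16 CPM, at least 20.4-fold higher than the level of 3 counts per library. Ccl4 had 1 read in the 3 Tru70 input libraries together and 1141 reads in the IP libraries, and was called higher in all 4 protocols where it was tested. Both Ccl3 and Ccl4 attract monocytes and lymphocytes. Past the threshold in the full fit but not in a refit (adjusted p, edgeR) were Ccl5 with NuG (0.275 without replicate 3), and Ccl3 with Tru70 (0.0569 with the replicate block, 0.0603 without replicate 1, 0.0842 without replicate 3) and Tru4 (0.118 without replicate 1).

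In the neighbouring cluster of 6 CC ligand genes (chr11:82035571-82305690), Ccl2, Ccl7, Ccl12 and Ccl8 were higher in at least 1 protocol, and Ccl1 and Ccl11 were not tested. The share was 32% over all genes tested in at least 1 protocol, and 35 of the 44 tested members were higher in at least 1. Ccl2, which draws monocytes through Ccr2, was at 2.48, 1.05 and 1.35 in the input libraries and 11.1, 15.1 and 9.06 in the IP libraries with SMTseq4 (CPM), a log2 fold change of 2.85 ± 0.37 (SE), adjusted p = 1.11e-04 by edgeR. Ccl7, another Ccr2 ligand, was at 0.496, 0.150 and 0.0408 in the input libraries and 8.24, 6.72 and 4.96 in the IP libraries with SMTseq4 (CPM). In SMTseq0.25 it had 0 reads in input, and its IP level was at least 58.4-fold higher than 3 counts per library. Ccl22, a ligand of Ccr4, was called higher in 4 protocols. With SMTseq4 it was at 0.298, 0.599 and 0 in the input libraries and 4.82, 7.34 and 1.70 in the IP libraries (CPM), while Ccr4 itself was never tested. Calls that missed the threshold in a refit (adjusted p, edgeR) were Ccl2 with SMTseq0.25 (0.0573 without replicate 1) and NuG (0.169 without replicate 2, 0.135 without replicate 3), and Ccl22 with Tru70 (0.0711 without replicate 1, 0.0670 without replicate 2, 0.113 without replicate 3) and NuG (0.119 without replicate 1, 0.253 without replicate 2).

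Lower calls among the ligands were few. Ccl27a, a ligand of Ccr10, was at 5.46, 6.14 and 6.33 in the input libraries and 2.85, 1.81 and 3.84 in the IP libraries with SMTseq4 (CPM), a log2 fold change of -1.08 ± 0.33 (SE), adjusted p = 0.0178 by edgeR. It was called with this protocol alone. Ccl25, a ligand of Ccr9, shares exonic bases with Elavl1 on the opposite strand and was lower with SMTseq4 only (log2 fold change -0.98 ± 0.28 (SE), adjusted p = 0.0131 by edgeR). With Tru70 their log2 fold changes were -1.28 ± 0.65 (SE), adjusted p = 0.167 for Ccl27a and -0.59 ± 0.81 (SE), adjusted p = 0.635 for Ccl25, both by edgeR. Refits lost these calls (adjusted p, edgeR): Ccl27a with SMTseq4 (0.0565 without replicate 1, 0.118 without replicate 2).

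Cxcl12, which retains blood-forming cells through Cxcr4, was the CXC ligand with the highest level per length, and it changed little. With Tru70 it was at 229, 323 and 251 in the input libraries and 295, 569 and 418 in the IP libraries (CPM), with overlapping groups and a log2 fold change of 0.67 ± 0.26 (SE), adjusted p = 0.0778 by edgeR. It was called higher with Tru4, SMTseq4, SMTseq0.25 and NuG, at log2 fold changes of 0.62 to 0.76, and none of these 4 calls remained without each replicate in turn (adjusted p up to 0.148, edgeR). Replicate 1 was the lowest IP library in all 7 protocols, so the IP RNA of the same mouse was lowest whichever kit was used. Cxcl9, a ligand of Cxcr3, was at 9.50, 6.36 and 12.1 in the input libraries and 13.1, 7.995 and 7.71 in the IP libraries with Tru70 (CPM), and was called higher with SMTseq4 and SMTseq0.25 only, with overlapping groups in Tru70. Past the threshold in the full fit but not in a refit (adjusted p, edgeR) were Cxcl9 with SMTseq4 (0.164 without replicate 1, 0.126 without replicate 2) and SMTseq0.25 (0.0520 with the replicate block, 0.156 without replicate 1, 0.0638 without replicate 2, 0.0985 without replicate 3).

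Other CXC ligands rose more. Cxcl1, a neutrophil attractant that binds Cxcr2, was at 3.23, 2.21 and 0.446 in the input libraries and 20.4, 8.58 and 15.8 in the IP libraries with Tru70 (CPM), a log2 fold change of 2.93 ± 0.71 (SE), adjusted p = 0.0111 by edgeR. Cxcl16, a ligand with a membrane anchor that binds Cxcr6, was at 6.68, 13.3 and 11.99 in the input libraries and 185, 125 and 95.4 in the IP libraries (CPM), a log2 fold change of 3.67 ± 0.35 (SE), adjusted p = 6.88e-05 by edgeR. Exons of Zmynd15 on the opposite strand overlap 18.3% of its exonic bases. Exons on the opposite strand also overlap those of Cxcl10 (Art3) and Xcl1 (Gm20743), and of the receptor Cxcr5 (Bcl9l). The methods name no strand setting for the counts, and the paper removed reads that were ambiguous or matched several features. Reads in such shared bases may thus be missing from the counts. Cxcl10, a ligand of Cxcr3, was at 4.12, 5.89 and 3.80 in the input libraries and 17.6, 16.5 and 15.5 in the IP libraries with SMTseq4 (CPM), a log2 fold change of 1.85 ± 0.24 (SE), adjusted p = 1.07e-04 by edgeR. Cxcl13, which guides B cells through Cxcr5, was at 0.248, 0.549 and 0.571 in the input libraries and 13.7, 27.0 and 15.9 in the IP libraries (CPM), a log2 fold change of 5.34 ± 0.41 (SE), adjusted p = 3.50e-06 by edgeR. In Tru70 it was not tested, since its IP libraries held 0, 83 and 227 reads. Xcl1, made by T and NK cells, was called higher in all 4 protocols where it was tested and went with SMTseq4 from 0.248, 0.350 and 0.0408 to 7.16, 8.41 and 10.8 CPM. Cx3cl1 (fractalkine) was tested in 4 protocols and called in none (edgeR, Tru70 log2 fold change 2.21 ± 1.13 (SE), adjusted p = 0.169). Calls that missed the threshold in a refit (adjusted p, edgeR) were Cxcl1 with Tru70 (0.0589 without replicate 2, 0.0593 without replicate 3), SMTseq0.25 (0.0674 without replicate 1, 0.0657 without replicate 2) and NEB (0.126 with the replicate block, 0.274 without replicate 1, 0.126 without replicate 2, 0.151 without replicate 3), Cxcl16 with SMTer (limma, 0.105 without replicate 1), Cxcl10 with Tru70 (0.150 without replicate 1, 0.115 without replicate 2), and Cxcl13 with SMTseq0.25 (0.0759 without replicate 1).

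**Figure D4:**
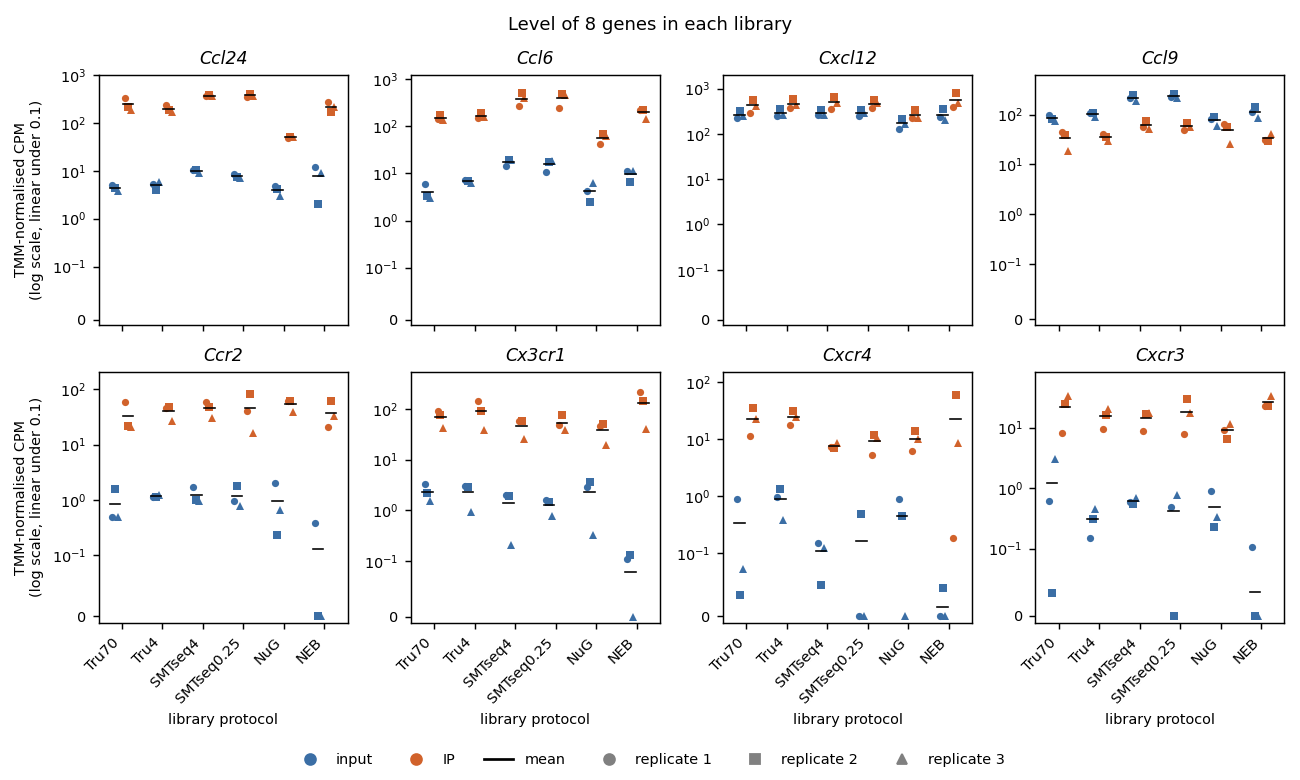
TMM-normalised CPM (y axis, log scale, linear under 0.1) of 8 chemokine and receptor genes in each input (blue) and IP (orange) library of the 6 protocols with counts (x axis), where marker shapes are replicates and black lines are means. For Ccl24, Ccl6, Ccr2, Cx3cr1 and Cxcr3 the 3 IP libraries lie above the 3 input libraries in each protocol, Ccl9 is lower in IP except for the overlap with NuG, and Cxcl12 differs little.

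Among the CC receptors, Ccr2 is known from monocytes and Ccr7 from migrating dendritic cells and lymphocytes. Ccr2 was at 0.486, 1.60 and 0.483 in the input libraries and 58.5, 21.4 and 20.5 in the IP libraries with Tru70 (CPM), a log2 fold change of 5.26 ± 0.67 (SE), adjusted p = 3.40e-04 by edgeR. The groups did not overlap for Ccr2 in any of the 7 protocols. Ccr7 was at 0.177, 0.749 and 0.0743 in the input libraries and 15.6, 19.1 and 18.8 in the IP libraries (CPM), a log2 fold change of 5.69 ± 0.77 (SE), adjusted p = 4.86e-04 by edgeR. Ccr3, the receptor of Ccl24, was at 1.24, 0 and 0.0743 in the input libraries and 29.7, 13.1 and 9.67 in the IP libraries (CPM), a log2 fold change of 5.36 ± 1.25 (SE), adjusted p = 0.00915 by edgeR. With Tru70, Ccr9 had 1 read in input and 393 reads in IP over 3 libraries each. Its exons overlap genes on both strands. Refits lost these calls (adjusted p, edgeR): Ccr7 with SMTseq0.25 (0.0590 without replicate 2, 0.0653 without replicate 3) and NEB (0.107 without replicate 1, 0.151 without replicate 2), Ccr3 with Tru70 (0.0746 without replicate 3), and Ccr9 with Tru70 (0.0883 without replicate 2, 0.0931 without replicate 3), Tru4 (0.0766 without replicate 2) and NuG (0.0688 without replicate 1, 0.0504 without replicate 2, 0.0613 without replicate 3).

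All 8 receptor genes of a cluster on chromosome 9, among them Ccr9, Cxcr6, Xcr1, Ccr1, Ccr1l1, Ccr3 and Ccr2, were called higher in at least 1 protocol and none was called lower. Of all genes tested in at least 1 protocol, 32% were higher in at least 1 and 30.1% lower. Of the 44 members tested, 35 were higher in at least 1, so nothing particular to the cluster is read from its count. Cxcr6, found on liver NK and T cells, was at 0.309, 0.953 and 0 in the input libraries and 23.8, 15.1 and 19.7 in the IP libraries with Tru70 (CPM), a log2 fold change of 5.50 ± 0.97 (SE), adjusted p = 0.00217 by edgeR. Xcr1, a receptor of type 1 dendritic cells, was at 0.133, 1.77 and 0.408 in the input libraries and 18.3, 19.3 and 18.5 in the IP libraries (CPM), a log2 fold change of 4.57 ± 0.80 (SE), adjusted p = 0.00207 by edgeR. Its 3 IP libraries were almost equal. Ccr1l1, Ccr6 and Ccr10 had few reads: Ccr1l1 was called higher with Tru4 alone, Ccr6 with SMTseq4 alone and Ccr10 with no protocol. Past the threshold in the full fit but not in a refit (adjusted p, edgeR) were Cxcr6 with NEB (0.0524 with the replicate block, 0.0542 without replicate 1, 0.135 without replicate 2, 0.103 without replicate 3), and Xcr1 with SMTseq0.25 (0.0587 without replicate 3).

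The CXC receptors and Cx3cr1 were higher in IP wherever they were called. Cxcr4 was at 0.884, 0.0340 and 0.0743 in the input libraries and 11.1, 35.2 and 22.2 in the IP libraries with Tru70 (CPM), a log2 fold change of 6.17 ± 1.02 (SE), adjusted p = 0.00155 by edgeR. With SMTseq4 it rose to lower IP levels of 7.22, 7.01 and 8.53 CPM, from 0.149, 0.0499 and 0.122 CPM in input. The difference of the 2 changes did not pass the interaction test. Cxcr3, the receptor of Cxcl9 and Cxcl10 on T and NK cells, was at 0.619, 0.0340 and 3.01 in the input libraries and 7.996, 24.7 and 32.9 in the IP libraries with Tru70 (CPM), a log2 fold change of 4.16 ± 1.10 (SE), adjusted p = 0.0170 by edgeR. Cxcr5, a receptor found on B cells, was at 0.446, 0.449 and 0.735 in the input libraries and 5.70, 6.02 and 3.30 in the IP libraries with SMTseq4 (CPM) and was called higher in 4 protocols, but with Tru70 its groups overlapped (edgeR, 3.51 ± 1.67 (SE), adjusted p = 0.142). Cxcr2, a neutrophil receptor, was at 0.397, 0.200 and 0.0408 in the input libraries and 3.87, 3.42 and 2.32 in the IP libraries with SMTseq4 (CPM) and was called in 3 protocols. Cx3cr1, which marks monocytes and some macrophages, was at 3.27, 2.18 and 1.52 in the input libraries and 91.0, 77.5 and 42.4 in the IP libraries with Tru70 (CPM), a log2 fold change of 4.92 ± 0.42 (SE), adjusted p = 3.63e-05 by edgeR. All 6 calls of Cx3cr1 remained without each replicate in turn. Calls that missed the threshold in a refit (adjusted p, edgeR) were Cxcr4 with SMTseq0.25 (0.0618 without replicate 3), Cxcr3 with Tru70 (0.0507 without replicate 1, 0.0629 without replicate 2) and NEB (0.0512 with the replicate block, 0.0520 without replicate 1, 0.122 without replicate 2, 0.155 without replicate 3), and Cxcr5 with SMTseq0.25 (0.0508 without replicate 2) and NuG (0.284 without replicate 2, 0.0986 without replicate 3).

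None of the 4 atypical receptors was called higher, and their values went from small increases to decreases. Ackr2, which removes inflammatory CC chemokines, was at 2.73, 3.35 and 5.43 in the input libraries and 1.46, 1.53 and 1.87 in the IP libraries with SMTseq4 (CPM), a log2 fold change of -1.24 ± 0.38 (SE), adjusted p = 0.0162 by edgeR, and was also lower with Tru4 (log2 fold change -1.40 ± 0.48 (SE), adjusted p = 0.0370). Ackr4, which binds Ccl19, Ccl21 and Ccl25, was at 1.68, 0.476 and 1.74 CPM in Tru70 input and had 0 reads in Tru70 IP, at least 14.7-fold lower against the level of 3 counts per library. No other protocol called it, and with SMTseq0.25 1 IP library stood above all input libraries. The exons of Ackr4 overlap those of Acad11 on the opposite strand. Ackr3, which binds Cxcl12, was at 1.39, 1.95 and 1.22 in the input libraries and 0.760, 0.866 and 0.312 in the IP libraries with SMTseq4 (CPM) and missed the threshold (edgeR, -1.23 ± 0.51 (SE), adjusted p = 0.0612). Ackr1, found on endothelium and red cells, was at 0.309, 2.79 and 0 in the input libraries and 1.40, 4.19 and 2.19 in the IP libraries with Tru70 (CPM) and shares 25.7% of its exonic bases with Cadm3 on the same strand. Refits lost these calls (adjusted p, edgeR): Ackr4 with Tru70 (0.130 with the replicate block, 0.0630 without replicate 1, 0.0609 without replicate 2, 0.101 without replicate 3).

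The makeup of the chemokine system differed between the fractions. Levels were compared between genes as normalised CPM per kb of annotated exon. Summed over the 60 genes, they were 88.4 ± 8.23 (SD, n = 3) in Tru70 input and 584 ± 69.0 in Tru70 IP. Cxcl12 and Ccl9 made up 37.1% ± 5.18 and 31.3% ± 4.36 of the Tru70 input sum. In Tru70 IP the leading genes were Ccl24 with 32.2% ± 6.14, Ccl6 with 14.7% ± 2.10 and Cxcl12 with 9.12% ± 3.27, and Ccl9 had rank 11 in the order of levels. The order of the leading pair in input did not hold across kits, since Ccl9 stood above Cxcl12 with NuG, SMTseq4, SMTseq0.25 and NEB. In IP, Ccl24 came first with all 6 protocols that had counts. With NuG its share was 14.4% ± 1.75, close to Ccl6 at 11.7% ± 2.36 and Cxcl12 at 11.5% ± 1.26. These 3 shares did not differ beyond their spread.

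**Figure D5:**
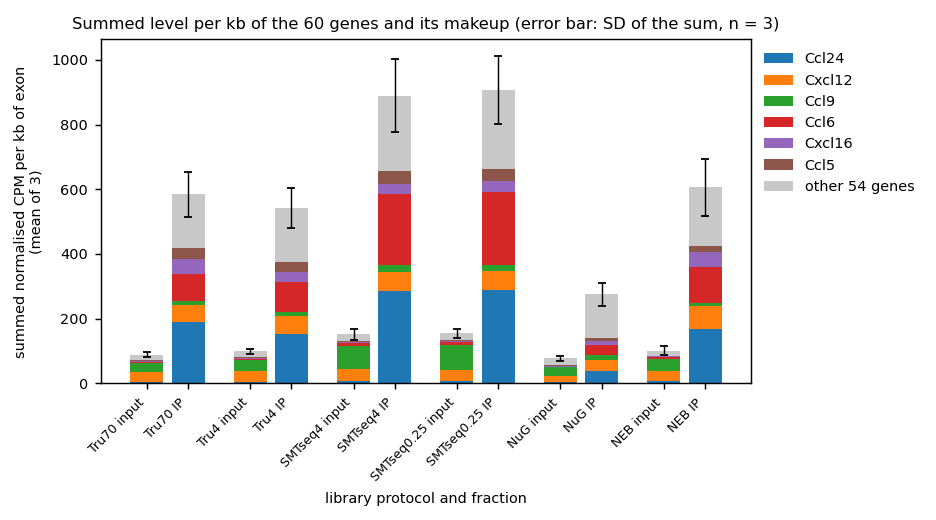
Summed normalised CPM per kb of exon of the 60 genes (y axis, mean of 3 libraries, error bar SD of the sum) in input and IP for 6 protocols (x axis), split into the parts of 6 genes and the other genes together. The Tru70 sum went from 88.4 in input to 584 in IP, and Cxcl12 and Ccl9 fill most of the input bars while Ccl24 and Ccl6 lead the IP bars.

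Genes with at least 1 read were counted among the 60 in each library. They numbered 33, 32 and 26 in Tru70 input and 37, 40 and 40 in Tru70 IP. SMTseq4 found the most, at 46, 46 and 43 in input and 50, 50 and 48 in IP, followed by Tru4 with 43, 40 and 38 in input and 46, 48 and 49 in IP. NEB found 24, 18 and 11 in input and 21, 27 and 36 in IP. Against Tru70 input, the differences were 14.7 genes for SMTseq4 and -12.7 for NEB (two-sided exact permutation test, p = 0.1 each, the smallest for 3 against 3). When every library was thinned to 464199 counts, SMTseq4 input kept 17, 17 and 17 genes and Tru70 input 16, 12 and 12, and the difference of NEB input from Tru70 input was -2.33 genes (exact permutation test, p = 0.4). After thinning, IP libraries held 18.3 genes more than input with Tru70, 21.3 more with SMTseq4 and 21.7 more with NuG (exact permutation test, p = 0.1 each). All these tests took the libraries as unpaired, although the compared groups share mice. Over all genes, without thinning, each SMTseq4 and Tru4 library also had more genes detected than any Tru70 library of its fraction. Each NEB library had fewer. Tru4 input stood above SMTseq4 input there. The differences between kits are thus not read as particular to the 60 genes.

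Ligands were set beside their known receptors in 36 pairs. With SMTseq4, both partners were called higher in 21 of 25 pairs that had both tested, with Tru4 in 20 of 26, with SMTseq0.25 in 12 of 23, with NuG in 10 of 12, with Tru70 in 7 of 21, with NEB in 0 of 7 and with SMTer in 0 of 1. Partners were called in opposite directions in 2 pairs with SMTseq4, 1 with Tru4 and 0 with the other protocols. Pairs share genes, and most tested members were called higher one by one in 6 protocols, so nothing particular to pairs is read from these counts. Pairs higher together in 5 protocols included Cxcl16 with Cxcr6, Ccl24 with Ccr3 and Ccl5 with Ccr3. Cxcl12 with Cxcr4, Cxcl10 with Cxcr3, Ccl2 with Ccr2, Cxcl13 with Cxcr5 and Xcl1 with Xcr1 were higher together in 4 protocols.

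Which replicate was highest or lowest was mostly the same across kits for some genes and not for others. Among the protocols in which a gene was tested, the IP level of Ccl5 was highest in replicate 3 in 6 of 6, Ccr7 in replicate 2 in 6 of 6, Ccl3 and Ccl7 in replicate 1 in 4 of 4, and Cxcr3 in replicate 3 in 6 of 7. Cx3cr1 was lowest in replicate 3 in 6 of 6. Xcr1 had no such order and was highest in each replicate in 2 of 6. The paper divided each RNA among the kits, so libraries of different kits are taken as aliquots from the same 3 mice. These counts describe the RNA of 3 animals, and a mouse and its pull-down cannot be told apart.

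Most other genes of the chemokine system that were called were higher in IP, and some were lower. These genes and the cell type markers come from lists chosen with earlier results of these data known. Of 24 genes that carry signals downstream of chemokine receptors, all were tested in 5 protocols, and 21 were higher and 1 lower with Tru70 (18.1% of all genes higher), 19 and 1 with SMTseq4 (30.4%), 19 and 1 with SMTseq0.25 (19.8%), 20 and 1 with Tru4 (25.9%) and 21 and 1 with NuG (24%). With NEB 7 of 23 tested were higher (5.82%), and with SMTer 9 of 12 (12.9%). Among those called higher in all 7 protocols were Rgs2, a brake on G-protein signalling, at log2 fold changes of 3.59 to 5.45, Vav1, an exchange factor of small GTPases in blood cells, at 2.92 to 5.34, Arrb2, an arrestin, at 2.63 to 3.85, and Grk2, a receptor kinase, at 2.67 to 3.48. Of 11 related genes tested, 6 were higher and 3 lower with Tru70 (18.1% and 16.7% of all genes). Cd74, a receptor of the cytokine Mif, rose in all 7 protocols at 4.42 to 5.40, Cmklr1, the receptor of chemerin, at 2.57 to 6.91, and Adam10, which sheds Cxcl16 and Cx3cl1, at 2.01 to 2.49. Rarres2, which encodes chemerin, fell in all 7 at -2.81 to -2.17. Mif itself was called lower in 5 of 7 protocols (median log2 fold change -1.30) and Dpp4 in 5 of 6 (-1.91). Gnai3, of the 24 signalling genes, was called lower in 5 of 7 (-0.88).

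Markers of several blood cell types were also higher in IP. Of all genes tested with Tru70, 18.1% were called higher and 16.7% lower. With Tru70, all 9 Kupffer cell markers were higher in IP, and their summed level went from 450 to 486 CPM in input to 16407 to 19803 CPM in IP. All 7 T cell markers were higher (3.85 to 4.56 CPM in input, 147 to 169 in IP, Themis at 0 in input), all 5 B cell markers (3.06 to 3.97 and 138 to 175), all 5 monocyte markers (81.5 to 102 and 1288 to 2417), 3 of 4 NK cell markers (0.398 to 3.64 and 33.6 to 53.6, Ncr1 at 0 in input), 3 of 4 dendritic cell markers (7.32 to 9.21 and 42.3 to 50.9), 3 of 7 neutrophil markers (2.12 to 4.60 and 77.7 to 193, Mpo at 0 in input), 2 of 4 megakaryocyte markers (1.22 to 4.57 and 26.2 to 32.4, Gp1bb at 0 in input) and 6 of 7 erythroid markers (1855 to 2864 and 102675 to 219999). Csf1r alone made up most of the monocyte sum, with means of 77.2 CPM in input and 1704 CPM in IP. Of the markers of liver parenchyma and stroma, 7 of 8 for hepatocytes, 4 of 6 for stellate cells (348 to 400.0 CPM in input and 88.3 to 105 in IP), 3 of 6 for sinusoidal endothelium (201 to 211 and 165 to 189.8) and 1 of 4 for cholangiocytes (5.12 to 9.73 and 1.26 to 4.22, Krt19 at 0 in IP) were lower, and none of these was higher with Tru70. The 1 of 4 for cholangiocytes was near the share over all genes, and nothing is read from it. Among the 6 endothelial markers, Pecam1 was higher with SMTseq4 (log2 fold change 1.25), SMTseq0.25 (1.37), Tru4 (0.96) and NuG (0.80), and Stab2 with SMTseq4 (0.76) and SMTseq0.25 (0.74), while 4, 1, 4 and 5 of the 6 were lower with SMTseq4, SMTseq0.25, Tru4 and NuG and 0 with NEB. Of all genes tested, 28.7% were lower with SMTseq4, 17.1% with SMTseq0.25, 24.2% with Tru4, 20.9% with NuG and 5.34% with NEB. No hepatocyte, stellate or cholangiocyte marker was called higher with any protocol. Their part in the chemokine results was not tested.

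The calls of NEB, NuG, SMTer and Tru4 rest on the exchange of replicate 3. With the fractions as labelled, 0 members were called in these 4 protocols by edgeR or, for SMTer, limma. Without replicate 3, which needs no exchange, 31 members were called higher with Tru4, 20 with NuG, 8 with SMTer and 4 with NEB.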

How the data were processed

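The authors trimmed reads, aligned them to mm10 with TopHat and deposited exon counts per Ensembl gene made with HTSeq, and the deposited counts were used for 6 protocols. The deposited RPKM of SMTer were used as the authors made them. In Tru70 the deposited RPKM matched read numbers per kb of the whole gene span for 77.5% to 78.2% of genes within 20%. Per kb of exon they matched for 7.26% to 7.61%, so their length scale was that of the gene span. By gene span the median number of implied reads per exon count was 1.98 to 2.02 in Tru70. Whether the RPKM also hold reads outside exons was not tested. With SMTer these shares were only 7.79% to 23.1% by gene span and 3.90% to 11.2% by exon. The RPKM of SMTer thus matched neither scale well. The study did not analyse strand and removed ambiguous reads from the counts, so counts may lack reads in bases shared with an antisense partner. In the RPKM, reads of a gene and of such a partner cannot be told apart.

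Counts were tested with edgeR 4.0.16 (quasi-likelihood test, TMM scaling, filterByExpr), and RPKM with limma 3.58.1 on log2(RPKM + 0.1), for genes with RPKM of at least 0.5 in 3 libraries. P-values were adjusted (Benjamini-Hochberg) over all genes tested, with 0.05 as the threshold. The difference of 2 protocols' changes was an interaction term. Annotation covered 47224 of 47729 gene IDs. Each script was tested on simulated data.

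Fractions of replicate 3 were exchanged in NEB, NuG, SMTer and Tru4, as described with the results. Members and gene lists were chosen with earlier results of these data known. Genes were named when called in at least 3 protocols, when their mean Tru70 RPKM reached 1 in a fraction, when called in opposite directions in 2 protocols, or when they differed from Tru70 in at least 2 protocols, with at most 8 further genes of the chemokine system, those called in the most protocols, and with Gfi1 and Alb as checks. Other members were named after their values were seen, to complete a family, a pair or a count, and refits of single genes cover those named by the rule. Mif, Dpp4 and Gnai3 were also named after their values were seen, as genes called lower. The names of the deposited files carry 1 animal code for each replicate number, and same-numbered libraries were taken as 1 mouse. Their deviations from the group means correlated at 0.22 to 0.29 with SMTseq4, 0.13 to 0.20 with Tru4 and 0.16 to 0.24 with SMTer, and at -0.03 to 0.16 with the other protocols. Alternatives were DESeq2 1.42.0 and its size factors, library totals, no filter, limma on RPKM, other pseudocounts, a replicate block, leaving out each replicate, and the fractions as labelled. Counting error only is covered by the level of 3 counts used where a group held 0 reads. 1 member is counted among the 60 genes but not reported here by name.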

Additional observations from a re-analysis of the deposited data

Results flagged for a closer look

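The change of Ccl24 between input and IP was smaller with NuG than with Tru70 by a tested difference of -2.23 on the log2 scale (edgeR interaction test, adjusted p = 0.00961). No other member passed this test with TMM scaling, the filter on low counts and no replicate block. Without the filter, further members passed with NuG. The difference for Ccl24 did not pass when replicate 1, 2 or 3 was left out. It was -0.98 with library totals alone (adjusted p = 0.0419, edgeR) and -1.20 on log2(RPKM + 0.1) (adjusted p = 0.0474, limma).

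Ccl21a, Ccl21b, Ccl27b and Ccl19 held 0 exon counts in every library but had deposited RPKM above 0. In Tru70 input the mean deposited RPKM was 2.49 for Ccl21a, 1.91 for Ccl21b, 0.477 for Ccl27b and 0.193 for Ccl19. In Tru70 IP it was 0.936, 1.04, 0.438 and 0.271 in the same order.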

How the results depend on the processing

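Without 1 replicate, members called higher ranged from 14 to 20 with Tru70, 28 to 33 with Tru4, 30 to 33 with SMTseq4, 20 to 21 with SMTseq0.25, 19 to 21 with NuG, 4 to 5 with NEB and 8 to 9 with SMTer, and members called lower from 0 to 1, 1 to 3, 1 to 3, 1 to 2, 0 to 0, 0 to 0 and 0 to 0. The difference of NuG from Tru70 was called for 0 to 0 members. With the replicate block, lower calls were 1 with Tru70, 1 with NuG and 2 with SMTer, and 1 member differed from Tru70 with NEB. Of 144 calls of named genes, 137 held with the block, and the 7 lost were Ccl3, Cxcl2 and Ackr4 with Tru70, Cxcl9 with SMTseq0.25, and Cxcl1, Cxcr6 and Cxcr3 with NEB. Limma on RPKM gave 21 higher and 7 lower with SMTseq4, 5 lower with SMTseq0.25, 19 higher and 4 lower with Tru4, and 2 lower with NEB. DESeq2 called 2 lower with SMTseq0.25 and 16 higher with NEB. Library totals, tried after seeing the data, left 1 lower with SMTseq4, 1 with Tru4 and 0 with NEB, and gave 5 members that differed from Tru70 with NuG, against 4 with limma on RPKM, also tried after seeing the data. Without the filter, 1 was lower with NuG, and 1, 5 and 1 members differed from Tru70 with SMTseq0.25, NuG and NEB. Exon counts of SMTer tested in edgeR gave 3 higher and 1 lower. With the fractions as labelled, 0 members were higher with Tru4, NuG, NEB and SMTer, 0 were lower with Tru4 and NEB, 0 differed with NuG, and Cxcr2 with Tru4 (-0.26) and Ccl5 with NuG (-0.92) turned direction on the log2 scale. Genes detected per library differed from Tru70 by -1.33 for NuG IP when at least 5 reads were asked for, and by 1.33 for SMTer input after thinning, both against the direction of the unthinned values with 1 read. The causes were not tested. SMTer had the lowest totals, 464199 to 762562 exon counts per library.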
